A study of Mus musculus with 16 samples.

Results

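The 6 RNA-seq libraries of batch 1 in a study of mouse neural stem cells fell into 2 sides that did not match the treatment. Side A held gRNA 1, control 1 and control 2, and side B held gRNA 2, gRNA 3 and control 3. They are 6 of 12 RNA-seq libraries and of 16 libraries in all. The sides were chosen from the gene counts of these same libraries, so every difference in gene level between them is a description and carries no test. All libraries came from total RNA of neural stem cells kept in self-renewing conditions (written GF in the labels). The gRNA libraries had the treatment that the labels name TAPIR, which they do not explain, and the control libraries did not. The labels give no strain, age, target of the gRNA or culture of origin. Library numbers are only names here, and p-values measure the spread between libraries, which may be technical.

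Neural stem cells are dividing cells of the brain that can renew themselves or form neurons and glia. They carry the transcription factors Sox2 and Olig2 and the intermediate filament nestin (Nes). Growing cells spend much of their RNA on ribosomes, the respiratory chain and the proteasome, and many such housekeeping transcripts are short and abundant. Signals such as interferon, Wnt and Hedgehog switch on smaller sets of genes. In bulk RNA, fewer cells of a type and less RNA per cell cannot be told apart.

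The stem cell markers were high on both sides. Sox2 had 171, 148 and 182 CPM (counts per 1000000 counts of a library, with library sizes scaled by TMM) in gRNA 1, control 1 and control 2, and 130, 132 and 134 CPM in gRNA 2, gRNA 3 and control 3. Nes lay between 440 and 775 CPM, Olig2 between 213 and 388 CPM and the proliferation marker Mki67 between 612 and 843 CPM. The neuronal markers Dcx and Tubb3 stayed under 5 CPM in all 6 libraries, with highest values of 4.01 and 4.46 CPM. Other neuronal genes had higher levels. Syn1 averaged 21.7 ± 0.779 CPM on side A and 30 ± 3.11 CPM on side B (SD, n = 3). Rbfox3 had 16.2 and 20.8 CPM in gRNA 3 and control 3, and 8.02 to 8.85 CPM in the other libraries. Of the marker lists, 18 of 32 neuronal genes, 3 of 14 microglial genes and 13 of 23 endothelial and mural genes were expressed highly enough to be tested. The level of the neuronal list ranged from −0.11 to 0.09 on side A and from −0.03 to 0.11 on side B (mean centred log2 CPM), and the sides overlapped. Of its 18 genes, 4 (22.2%) were lower on side A without overlap and by at least 1.2-fold, against 9.52% of all genes tested. Tubb3 and Syn1 were among them, and 1 gene was higher on side A by the same rule.

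Side A was the shallower side. Counts in genes came to 10515276 in gRNA 1, 14301905 in control 1 and 8414028 in control 2, against 17730086 in gRNA 2, 17143345 in gRNA 3 and 19454390 in control 3. Every side B library was deeper than every side A library, with means of 18.11 ± 1.2 and 11.08 ± 2.98 M counts (M for 1000000; SD, n = 3 a side). The exact two-sided permutation test gave p = 0.1, adjusted p = 0.2 over 4 measures, and 0.1 is the smallest p that 3 libraries against 3 allow. These totals are sums of the gene counts from which the sides were chosen, so this test is not independent of that choice.

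The share of reads that fell in no annotated gene did not divide the sides. It was 20.6% in gRNA 1, 25.07% in control 1 and 18.95% in control 2, and 22.74%, 23.17% and 22.08% in gRNA 2, gRNA 3 and control 3. Side A held both the highest and the lowest libraries, and the exact permutation test gave p = 0.6 (adjusted p = 0.6). The means differed by −1.122 percentage points, against an SD of 3.16 on side A. Ambiguous reads overlapped as well, at 3.403% ± 0.179 on side A and 3.308% ± 0.0706 on side B (SD, n = 3; exact permutation p = 0.5, adjusted 0.6). Reads without a unique alignment made up 2.343%, 1.996% and 2.229% on side A and 1.967%, 1.928% and 1.871% on side B, which did not overlap (exact permutation p = 0.1, adjusted 0.2). Side A libraries also had fewer genes with at least 1 count (26170 ± 1470 against 28380 ± 219), and a larger share of counts in the 100 most abundant genes (6.234% ± 0.468 against 5.422% ± 0.264). Depth and side cannot be told apart in these 6 libraries.

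**Figure D1:**
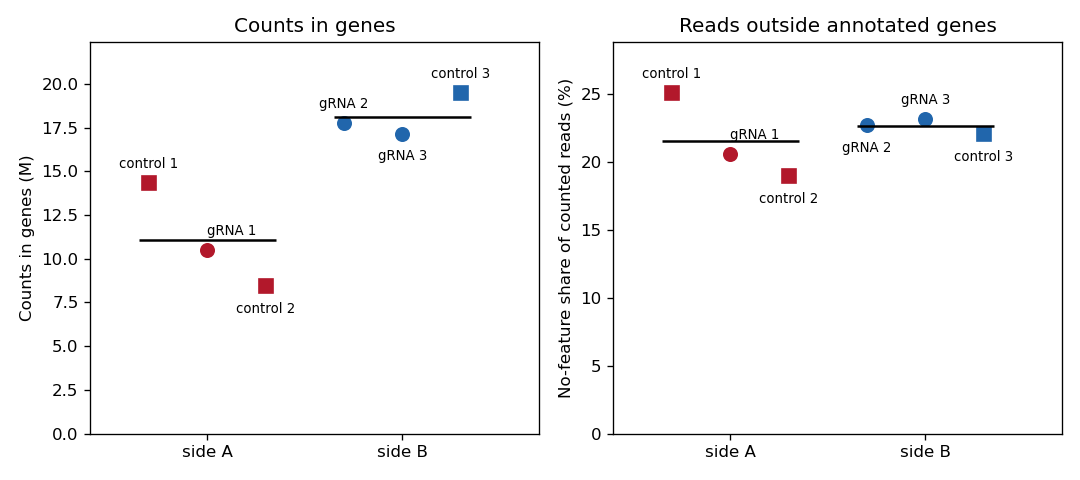
Counts in genes (left, in M) and the share of reads in no annotated gene (right, %) for the 6 libraries of batch 1. Circles are gRNA and squares control libraries, red is side A, blue is side B, and black lines are means of 3 libraries. Depth parts the sides, from 8.414 to 14.3 M against 17.14 to 19.45 M, and the no-feature share does not.

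The 2 sides were not equally tight groups. gRNA 3 and control 3 had the highest correlation of log2 CPM among the 15 pairs of libraries, at 0.9947 across genes, although they carry different treatments. By correlation, gRNA 2 lay closer to side A than to its own side, at 0.9896 with gRNA 1, 0.9926 with control 1 and 0.9883 with control 2, against 0.987 with gRNA 3 and 0.9872 with control 3. By root mean square difference of log2 CPM, gRNA 2 was nearer to control 1 (0.322) and gRNA 1 (0.402) than to gRNA 3 (0.43) and control 3 (0.427). Control 2 was farthest from gRNA 2 by that measure, at 0.447. With all libraries thinned to the same depth, its correlation with control 1 was 0.9899 and its highest on side B 0.9845, and over genes that averaged 50 counts or more these were 0.9946 and 0.9825. Genes are not independent replicates, and these values only describe the 6 libraries.

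The first principal component held 43.7% of the variance and set gRNA 3 (32.4) and control 3 (33.4) far from the other 4 libraries. gRNA 2 stood at −5.1, beside control 1 at −8.2, and gRNA 1 and control 2 stood at −25.1 and −27.5. The second component held 21.1% and set control 2, the shallowest library, at −32.9. Neither component followed depth through all 6 libraries: gRNA 2 was deeper than gRNA 3, and the 2 shallowest libraries, control 2 and gRNA 1, lay at opposite ends of the second. Genes that followed the sides are described first, and genes that parted gRNA 3 and control 3 from the rest after them.

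**Figure D2:**
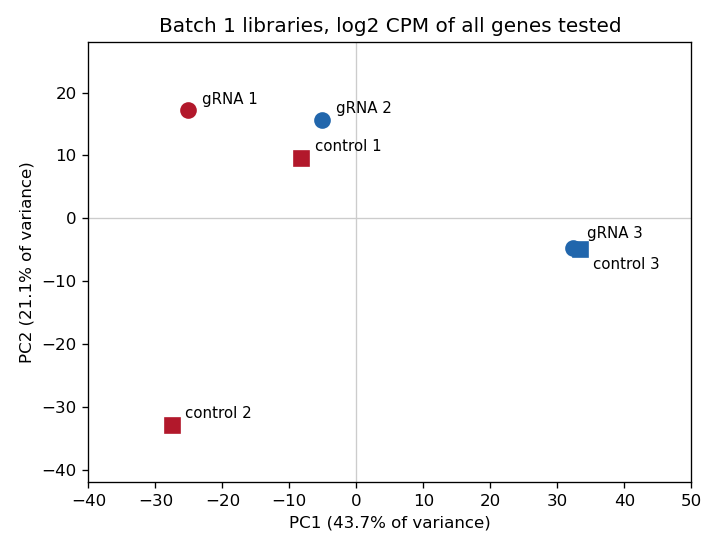
First and second principal components of log2 CPM over all genes tested. Circles are gRNA and squares control libraries, red is side A and blue is side B. gRNA 3 and control 3 lie together at the right, gRNA 2 lies with control 1, and control 2 lies alone at the bottom.

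Of 16988 genes tested, 3075 (18.1%) followed the sides, which here means that the libraries of the sides did not overlap and that the side means differed by at least 1.2-fold. Of these, 1458 (8.58%) were higher on side A and 1617 (9.52%) were lower. The sides were chosen on these values, so nothing is read from the size of these shares. The median difference over all genes was −0.02 on the log2 scale, with quartiles at −0.21 and 0.16. At 2-fold or more, 17 genes were higher and 115 lower on side A. Scaling by total counts in place of TMM gave 981 higher and 2427 lower. At the limit itself, Slc9a3r1 (0.263) and Zfp619 (−0.263) were counted, and Fbxo34 (−0.263) fell just short. The higher genes had a median mean count of 1220 per library and the lower genes one of 250.

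Cytosolic ribosomal proteins lay on 1 side as a group. All 83 lay higher on side A and 77 followed the sides (92.8%), with a median difference of 0.57 against −0.02 over all genes tested. Rpsa, a protein of the small ribosomal subunit, had 167, 131 and 209 CPM in gRNA 1, control 1 and control 2 and 108, 107 and 99 CPM in gRNA 2, gRNA 3 and control 3. Control 2 was highest, control 1 was nearest to side B, and the 3 side B libraries lay close together. Eef1a1, which brings aminoacyl-tRNA to the ribosome, averaged 261 ± 74.9 CPM on side A and 156 ± 7.19 CPM on side B (SD, n = 3), and Eef2, which moves the ribosome along, 492 ± 125 and 309 ± 18 CPM. All 45 translation factors lay above 0 and 31 followed the sides, with a median of 0.34. Mitochondrial ribosomal proteins were less uniform: 66 of 78 lay above 0, 17 followed, and the median was 0.19. Single ribosomal protein and histone genes have near-identical copies, and reads could be split between them.

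Genes of the respiratory chain moved with the ribosome. All 78 nuclear-encoded oxidative phosphorylation genes were higher on side A and 68 followed, with a median of 0.48. Atp5b, the catalytic subunit of ATP synthase, had 306, 237 and 397 CPM on side A (gRNA 1, control 1, control 2) and 196, 199 and 178 CPM on side B (gRNA 2, gRNA 3, control 3). The complex I subunit Ndufc2 averaged 72.5 ± 13.9 and 46.4 ± 1.3 CPM. The mitochondrially encoded mRNAs, which supply core subunits of the same complexes, had the largest median of the lists, 0.76. Of the 13 in the list 8 were tested, and all 8 followed. mt-Nd1, a complex I subunit, had 159, 113 and 209 CPM on side A and 90.2, 97.8 and 85.7 CPM on side B. Copies of mitochondrial sequence in the nuclear genome can share such reads.

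Protein turnover and chaperones showed the same direction. All 32 proteasome genes were higher on side A and 29 followed, with a median of 0.36. Psma7, a subunit of the proteasome core, averaged 93.6 ± 14.4 and 66.8 ± 2.45 CPM. Of 31 heat shock and chaperonin genes, 19 (61.3%) followed upwards, against 8.58% of all genes tested. The chaperone Hsp90ab1 was among them, at 412 ± 106 against 252 ± 14.1 CPM. Hspb8, a small heat shock protein, went the other way at 13.1 CPM on average on side A, with 13.4, 25.3 and 26.8 CPM in gRNA 2, gRNA 3 and control 3. Splicing factors had 63 of 66 above 0 and 35 that followed, and Sfpq, an RNA-binding splicing factor, averaged 378 ± 58.6 and 260 ± 7.82 CPM. Of 56 replication-dependent histones, which package newly copied DNA, 35 followed upwards and 2 downwards, with a median of 0.43, while DNA replication genes had 10 of 46 that followed and a median of 0.13. The linker histone Hist1h1b averaged 92.3 ± 16.1 and 60.2 ± 2.14 CPM.

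Among single genes with the widest gap between the sides in this direction were Scg2 and Vgf, both of the granin family of secretory granule proteins. Scg2 had 9.34, 11 and 12.6 CPM in gRNA 1, control 1 and control 2 and 6.54, 6.59 and 6.24 CPM in gRNA 2, gRNA 3 and control 3. Vgf averaged 7.62 ± 0.232 and 3.89 ± 1.93 CPM, and control 3 was lowest at 1.92 CPM. Txn1, the redox protein thioredoxin, averaged 89.9 ± 22.1 and 53.3 ± 3.03 CPM. The others on the list of 12 were Ndufc2, Ndufa8, Rpsa, Timm13, Cox7b, Rps3a1, Sfpq, mt-Rnr1 and Hist1h1b, most of them genes of mitochondria or ribosomes. Malat1, a nuclear long non-coding RNA, averaged 989 ± 280 and 582 ± 33.6 CPM.

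Stem and glial markers shared the direction in part. Of 39 neural stem and progenitor genes, 26 lay above 0 and 13 below. Of the 39, 17 (43.6%) followed upwards, against 8.58% of all genes tested, and 0 downwards, with a median of 0.22. Olig1 averaged 298 ± 74.3 CPM on side A and 182 ± 9 CPM on side B, and Nes 682 ± 111 against 484 ± 38.8 CPM. Zbtb20, of the same list, went the other way at 283 ± 46.9 against 461 ± 155 CPM, but its sides overlapped. Of 24 astrocyte genes, 11 followed upwards and 1 downwards. Gfap, the astrocyte filament, did not differ by side, at 15 ± 1.04 and 14.9 ± 3.78 CPM.

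**Figure D3:**
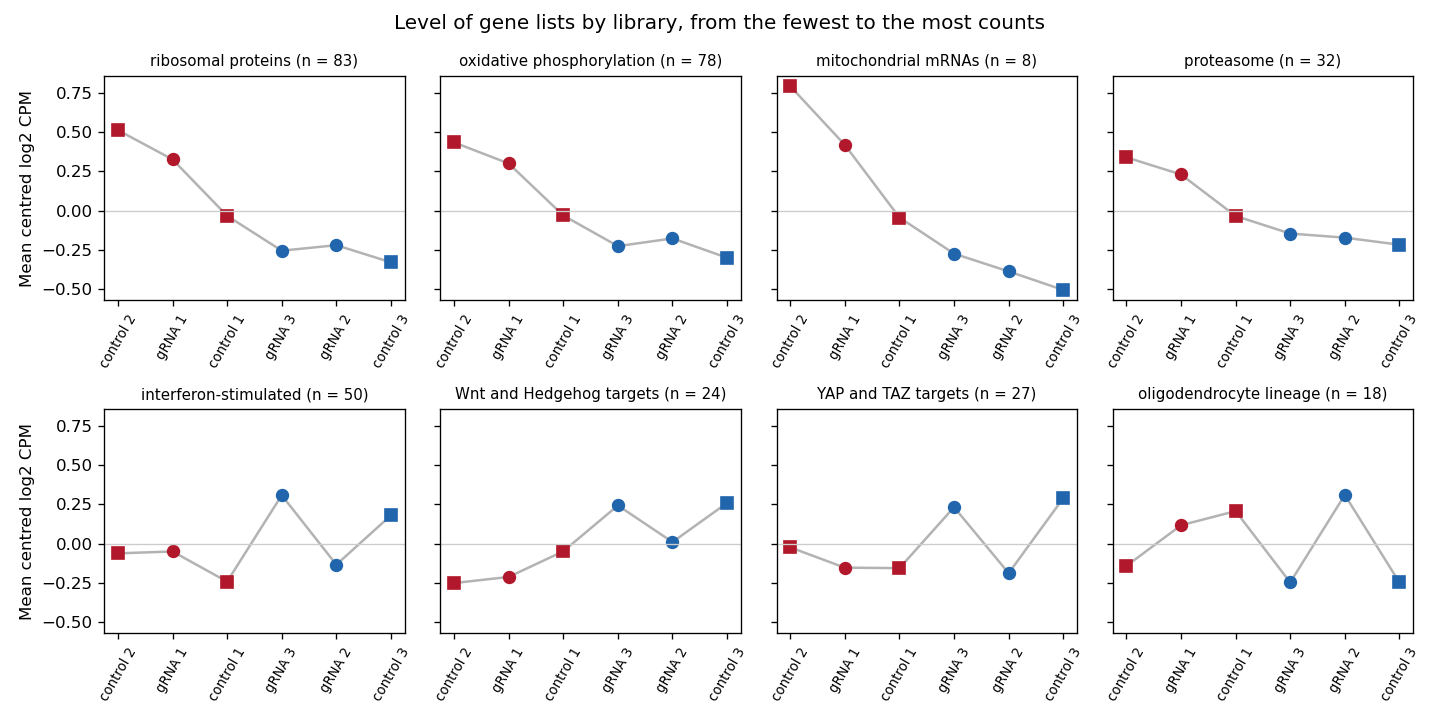
Mean centred log2 CPM of 8 gene lists in the 6 libraries of batch 1, ordered from the fewest counts (control 2) to the most (control 3). Circles are gRNA and squares control libraries, red is side A and blue is side B, and n is the number of genes tested. The lists in the upper row are highest in control 2 and gRNA 1 and lowest in control 3, and in the lower row gRNA 3 and control 3 stand apart from gRNA 2 for interferon, YAP and TAZ, and oligodendrocyte lineage genes.

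Within side A, the levels of the housekeeping lists fell in the order of depth. The ribosomal protein list stood at 0.51 in control 2, 0.33 in gRNA 1 and −0.03 in control 1 on side A. It stood at −0.25 in gRNA 3, −0.22 in gRNA 2 and −0.33 in control 3 on side B (mean centred log2 CPM). Control 1 lay closer to side B than to control 2, and within side B the deeper gRNA 2 stood above gRNA 3. The order control 2, gRNA 1, control 1, then all of side B in any order, held for 76 of 83 ribosomal protein genes, 59 of 78 oxidative phosphorylation genes, 28 of 32 proteasome genes and 8 of 8 mitochondrially encoded mRNAs. It held for 1016 of the 1458 higher genes (69.7%) and for 8.31% of all genes tested.

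The raw counts show what this means at the level of reads. mt-Nd1 was counted 1645 times in gRNA 1, 1641 times in control 1 and 1631 times in control 2, and 1675, 1679 and 1681 times in gRNA 2, gRNA 3 and control 3. Its counts thus ranged over 1.03-fold, while the library totals ranged over 2.31-fold. The SD of the 6 counts was 22.1, below the square root of their mean (40.7), which is the SD that independent counting would give at equal expected counts. The higher CPM of mt-Nd1 on side A was a nearly constant count over a smaller total.

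Other housekeeping genes grew with depth, but slowly. Rpsa had 1721, 1908 and 1630 counts in gRNA 1, control 1 and control 2 and 2004, 1845 and 1942 counts in gRNA 2, gRNA 3 and control 3. Eef1a1 ranged over 1.11-fold and Malat1 over 1.08-fold across the 6 libraries. Sox2 ranged over 1.86-fold, from 1421 in control 2 to 2639 in control 3. The highest count of any gene in a library was 19976, for Macf1, which encodes a very large cytoskeletal linker protein, and the largest share of a library's counts in 1 gene was 0.142%, for Ptprz1, a receptor phosphatase of neural progenitors. Macf1 ranged over 2.95-fold, more than the depth.

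**Figure D4:**
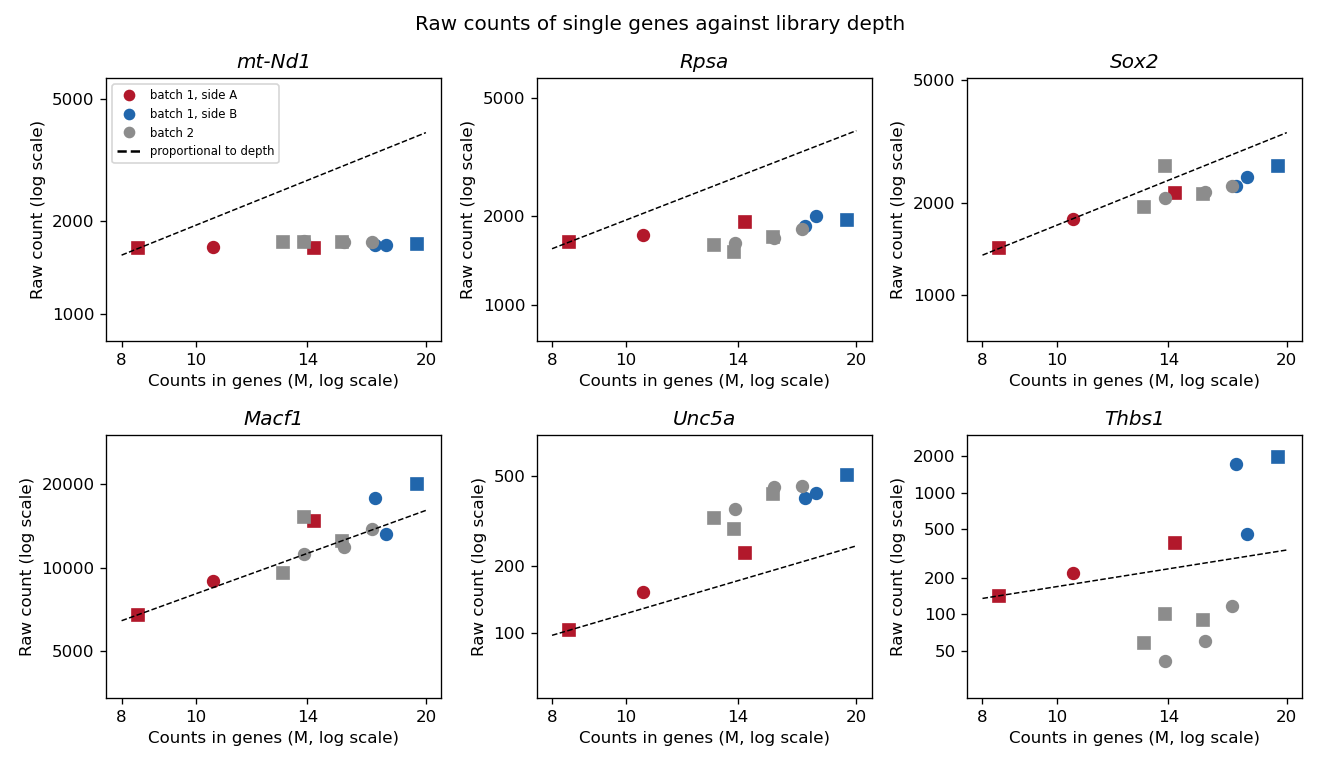
Raw counts of 6 genes against counts in genes per library, both on log scales. Red is side A and blue side B of batch 1, grey is batch 2, circles are gRNA and squares control libraries, and the dashed line is growth in proportion to depth from the shallowest library. mt-Nd1 stays between 1631 and 1721 in all 12 libraries, Rpsa grows slowly, and Thbs1 rises with gRNA 3 and control 3 far above the line.

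The same was measured for each gene as the slope of log2 count on log2 depth over the 6 libraries, where 1 is growth in proportion to depth. The median slope was 1.14 over all genes tested. It was 0.05 for mitochondrially encoded mRNAs, 0.32 for ribosomal proteins, 0.46 for nuclear-encoded oxidative phosphorylation genes, 0.61 for the proteasome and 1.55 for Wnt and Hedgehog targets. From the shallowest library to the deepest, the summed counts of ribosomal proteins grew 1.36-fold and those of interferon-stimulated genes 2.65-fold. Without control 2 the slopes were 0.28 for ribosomal proteins, 0.40 for oxidative phosphorylation and 1.08 for all genes tested, and without gRNA 3 and control 3 they were 0.39, 0.55 and 1.19.

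The slope also varied with how abundant a gene was. Genes were ranked by mean count in batch 1 and cut into 10 equal groups (deciles). In decile 10, the most abundant, the median slope was 0.95, and 23.5% were higher and 0.412% lower on side A. In decile 4 it was 1.248, and 3.35% were higher and 18.2% lower. The housekeeping lists had lower slopes than genes of like abundance. Ribosomal proteins had a median mean count of 814 and a slope of 0.32, against 820 and 1.14 in decile 7. Oxidative phosphorylation genes had 672 and 0.46, against 527 and 1.18 in decile 6. The slopes were measured in the same libraries that formed the sides.

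Batch 2 allowed the slopes to be measured in 6 libraries that had no part in forming the sides, although its depths ranged over only 1.31-fold. mt-Nd1 was counted 1714, 1708 and 1721 times in gRNA 4, gRNA 5 and gRNA 6 and 1717, 1716 and 1708 times in control 4, control 5 and control 6. The SD of these counts was 5.18, against a square root of the mean of 41.4. mt-Cytb, the cytochrome b of complex III, ranged from 2091 to 2104. Median slopes were 0.01 for mitochondrially encoded mRNAs, 0.53 for ribosomal proteins, 0.53 for oxidative phosphorylation genes and 0.61 for the proteasome, against 1.21 for all genes tested. The mitochondrially encoded list had 11 genes tested here, against 8 in batch 1. The lower quartile of its slopes was −0.45, so mt-Nd1 and mt-Cytb do not describe the whole list. Other lists differed from batch 1. Histones had 1.07, against 0.48 in batch 1. Wnt and Hedgehog targets (1.16) and interferon-stimulated genes (0.80) lay below all genes tested. Over all 6 libraries of batch 1 both lists lay above (1.55 and 1.29). Without gRNA 3 and control 3, the batch 1 slope of interferon-stimulated genes was 1.08, below the 1.19 of all genes tested. That of Wnt and Hedgehog targets was 1.40, still above it. Batch 2 slopes were 0.88 in decile 10 and 1.66 in decile 1. Control 6 stood apart in batch 2, with interferon genes at 0.53 where the other 5 libraries lay from −0.21 to −0.05. Without it the slopes were 0.41 for ribosomal proteins, 0.43 for oxidative phosphorylation, 1.35 for interferon-stimulated genes, 1.16 for Wnt and Hedgehog targets and 1.18 for all genes tested.

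**Figure D5:**
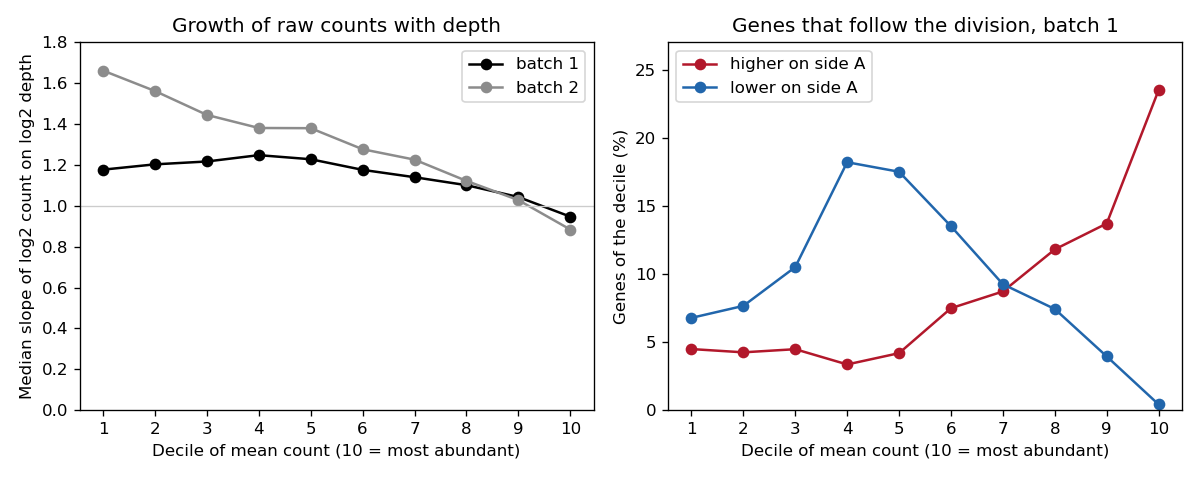
Left, median slope of log2 count on log2 depth in deciles of genes ranked by mean count (10 is the most abundant), for batch 1 (black) and batch 2 (grey), with a line at 1 for growth in proportion to depth. Right, percent of each decile that was higher (red) or lower (blue) on side A in batch 1. The slope falls below 1 in decile 10 of both batches (0.95 and 0.88), where 23.5% of genes were higher on side A.

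The relation of list level to library measures was then tested in batch 2, for 8 relations of 4 lists with depth and with the no-feature share, chosen after batch 1 was seen. Oxidative phosphorylation against depth gave Pearson's r = −0.871 (exact permutation p = 0.0222, adjusted 0.178) and Spearman's rho = −0.714 (exact permutation p = 0.136, adjusted 0.594), n = 6. Without the 2 libraries farthest from the median depth, r was −0.616. Ribosomal proteins against depth gave r = −0.725 (exact permutation p = 0.111, adjusted 0.222) and rho = −0.6 (p = 0.242, adjusted 0.594), and r was −0.113 without the 2 farthest libraries, so that relation rested on them. Against the no-feature share, oxidative phosphorylation gave r = −0.823 (exact permutation p = 0.0458, adjusted 0.183) and ribosomal proteins r = −0.764 (p = 0.0889, adjusted 0.222), with rho of −0.6 (p = 0.242) and −0.543 (p = 0.297), both at an adjusted p of 0.594. Without the 2 libraries farthest from the median share, r was −0.36 and 0.256. Interferon and Wnt and Hedgehog genes had r of −0.233 and 0.084 with depth and 0.067 and 0.413 with the no-feature share. Without the 2 farthest libraries these r were −0.606 and −0.032 with depth and −0.925 and −0.83 with the no-feature share, so both relations with that share turned. None of the 8 relations passed adjustment. gRNA 4, gRNA 5 and control 5 were the deepest libraries of batch 2 and had the highest no-feature shares (12.54%, 12.7% and 12.06%). The relations with depth and with that share are therefore not independent of each other. The list of ribosomal proteins ranged over 0.25 in batch 2 and over 0.84 in batch 1.

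Thinning every batch 1 library to the depth of the shallowest keeps each gene's expected share of its library, so the differences in CPM had to stay and it does not bear on how counts grew with depth. After it the median was 0.56 for ribosomal proteins, 0.49 for oxidative phosphorylation and 0.79 for mitochondrially encoded mRNAs, and 1366 genes were higher and 1446 lower on side A. In the pair of libraries across the sides with the nearest depth, control 1 (14.3 M) and gRNA 3 (17.14 M), the medians were 0.22, 0.20 and 0.20. In the pair with the nearest no-feature share, gRNA 1 and control 3, which differ widely in depth, they were 0.69, 0.63 and 0.90. Each pair is 1 library a side and has no replicate check. Most genes of these lists followed the sides, so any pair across the sides had to give medians above 0. The pairs thus measure size and do not test direction.

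Genes lower on side A were of other kinds. Of 24 Wnt and Hedgehog targets, 10 (41.7%) followed downwards, against 9.52% of all genes tested, and 1 upwards. The median was −0.41, the lowest of the lists with at least 10 genes tested, and −0.26 without control 2. Hhip, a Hedgehog target that binds and restrains the ligand, had 9.72, 11.2 and 12.8 CPM in gRNA 1, control 1 and control 2 and 15, 23.8 and 24.5 CPM in gRNA 2, gRNA 3 and control 3. The sides did not overlap, and gRNA 2 lay nearer to side A than to gRNA 3. Sfrp1, a secreted Wnt antagonist, averaged 11.1 ± 1.56 and 21.9 ± 6.81 CPM, and Lgr5, an R-spondin receptor that strengthens Wnt signals, 19.9 ± 3.06 and 31 ± 3.51 CPM. The list's level in gRNA 2 was 0.01, between control 1 at −0.05 and gRNA 3 at 0.24.

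The 12 genes with the widest gap in this direction were mostly receptors, channels and other membrane proteins at low levels. Ackr3, an atypical chemokine receptor, had 5.08, 5.28 and 3.08 CPM on side A (gRNA 1, control 1, control 2) and 8.1, 16.7 and 13.9 CPM on side B (gRNA 2, gRNA 3, control 3). Unc5a, a netrin receptor, had 15, 15.7 and 13.3 CPM on side A and 22.8, 23.3 and 25.9 CPM on side B, so here gRNA 2 lay with its own side. Slc14a2, a urea transporter, averaged 4.29 ± 0.627 and 10.1 ± 1.48 CPM, Grm4, a metabotropic glutamate receptor, 3.1 ± 0.876 and 8.47 ± 2.11 CPM, and Chrna7, a nicotinic receptor subunit, 2.81 ± 0.322 and 5.18 ± 0.745 CPM. The rest were Shisa9, Ifi47, Car13, Cdhr1, Apcdd1, Adcy8 and Plppr5.

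In these genes, gRNA 2 was often between the sides. Among the 1617 lower genes, gRNA 2 was the side B library nearest to side A in 68.6%, and its median position was 0.624, where 0 is the side A mean and 1 the mean of gRNA 3 and control 3. Among the 1458 higher genes it was nearest in 44.3%, with a median position of 0.931. The higher genes thus had gRNA 2 beside the other deep libraries, and the lower genes more often had it part of the way.

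A set of genes parted gRNA 3 and control 3 from all other libraries, gRNA 2 included. By a rule set after the data were seen (both libraries outside the range of the other 4, and at least 1.5-fold from their mean), 1001 genes (5.89%) were higher in the pair and 474 (2.79%) lower. Of the 1001, 445 also followed the sides as lower on side A, and 556 did not follow them. The pair was picked for standing apart, so this is a description too.

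Interferon-stimulated genes, which answer viral and self nucleic acid, had 12 of 50 higher in the pair (24%, against 5.89% of all genes) and 0 lower. Zbp1, a sensor of such nucleic acid, had 29.2 CPM in gRNA 3 and 25 CPM in control 3, against 7.11, 5.35, 5.35 and 5.13 CPM in gRNA 1, gRNA 2, control 1 and control 2. gRNA 2 and control 1 had the same value, and no other library came near the pair. Against the sides, the same list had 12 of 50 genes that followed downwards, 1 upwards and a median of −0.25, which was −0.15 without gRNA 3 and −0.38 without gRNA 2. Ifi47, an interferon-induced GTPase, averaged 2.97 ± 0.326 on side A and 6.88 ± 1.83 CPM on side B. Of 22 NF-kB genes, 4 were higher in the pair, among them the chemokine Ccl2 at 16.4 and 15.2 CPM, where the other 4 libraries lay from 5.69 to 7.08 CPM. In batch 2, Zbp1 had 0 counts in 5 libraries and 3 in gRNA 6.

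A minority of matrix and adhesion genes were higher in the same pair. Thbs1, the matrix glycoprotein thrombospondin, had 101 CPM in gRNA 3 and 100 CPM in control 3, against 21.2, 24.8, 26.3 and 18.3 CPM in gRNA 1, gRNA 2, control 1 and control 2. Its raw counts were 1731 and 1967 in the pair and 459 in gRNA 2, which had more counts in all than gRNA 3. Lama4, a laminin chain of basement membranes, had 37.1 and 42.6 CPM in the pair and 12.8 to 17.1 CPM elsewhere. Of 54 matrix genes 10 (18.5%) were higher in the pair and 1 lower, against 5.89% and 2.79% of all genes tested. Of 62 cadherins and other large adhesion receptors 14 (22.6%) were higher and 0 lower. Plxna4, a semaphorin receptor, had 26.3 and 32.5 CPM in the pair, 14.2 CPM in gRNA 2 and 8.08 to 12.4 CPM on side A. YAP and TAZ targets had 7 of 27 higher (25.9%), and Wnt and Hedgehog targets 9 of 24 (37.5%).

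Slc7a11, the cystine transporter that ATF4 and NRF2 induce, had 356 and 364 CPM in gRNA 3 and control 3 and 102, 113, 119 and 138 CPM in gRNA 1, gRNA 2, control 1 and control 2. The pair differed by less than the other 4 libraries did among themselves. Osgin1, an NRF2 target, had 6.13 and 7.06 CPM in the pair and 1.49 to 2.57 CPM in the other libraries. These genes do not describe their lists. Of 33 ATF4 targets 4 were higher in the pair and 0 lower, with a median difference of −0.002 (log2). Of 26 NRF2 targets 4 were higher and 0 lower, with a median of −0.09. Zbtb20, a transcription factor of neural progenitors, had 557 and 543 CPM in the pair and 246 to 336 CPM elsewhere.

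Some genes of glia were lower in the pair. Aldh1l1, an astrocyte marker of folate metabolism, had 66.2 CPM in gRNA 3 and 70.4 CPM in control 3, against 157, 134, 139 and 152 CPM in gRNA 1, gRNA 2, control 1 and control 2. Nkx2-2, a transcription factor of the oligodendrocyte lineage, had 13 and 11.9 CPM in the pair and 24.2 to 30.1 CPM in the others. Of 18 oligodendrocyte lineage genes 4 (22.2%) were lower in the pair and 1 higher. Of 24 astrocyte genes 3 (12.5%) were lower and 0 higher, against 2.79% lower among all genes tested. Snhg11, a long non-coding RNA, had 4.73 and 3.8 CPM in the pair and 14.8 to 17.1 CPM elsewhere, and Txnip, a thioredoxin-binding protein, 11 and 9.6 CPM against 20 to 26.2 CPM. The microglial list had only 3 genes tested, with levels of 0.55 and 0.45 in the pair and −0.39 to −0.16 in the others, and its part in these results was not tested.

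Few housekeeping genes passed this rule. Of 83 ribosomal proteins, 32 proteasome genes and 56 histones, 0 were higher or lower in the pair under the same rule, and of 78 oxidative phosphorylation genes 1 was lower. The rule asks for a 1.5-fold difference and does not set the pair against gRNA 2 alone, so smaller differences stay below it. The median difference between the pair and the other 4 libraries was −0.45 for ribosomal proteins, −0.41 for oxidative phosphorylation genes and −0.28 for the proteasome (log2).

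The sides crossed the treatment, so each treatment group held libraries of both. Between gRNA and control in batch 1, edgeR's quasi-likelihood test called 0 of 16988 genes (0% called) at an adjusted p of 0.05, and 147 had an unadjusted p under 0.05. With the side as a term, 0 genes (0% called) were called and 446 had an unadjusted p under 0.05. The typical variation between libraries (biological coefficient of variation) was 15.6% without the side and 11% with it. DESeq2 called 0 genes, with 57 under an unadjusted p of 0.05. limma-voom also called 0, with 157. Evenly spread p-values would put 849 genes under 0.05, more than any of these fits had. Because the side was chosen from these counts, a fit with it may understate the remaining spread.

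Errors for the treatment differed widely between genes. Thbs1, Slc7a11 and Zbp1, which parted gRNA 3 and control 3 from the rest, were high in 1 gRNA and 1 control library each. Their SEs for the treatment were 0.72, 0.55 and 0.76 (log2). Among genes that followed the sides, the SE was 0.15 for Sox2 and 0.56 for Ackr3. For Scg2 the treatment difference was −0.40 (SE 0.29, edgeR adjusted p = 1) on the log2 scale, and with the side as a term it was −0.12 (SE 0.19, adjusted p = 0.997). For Vgf it was 0.09 (SE 0.49, edgeR adjusted p = 1) without the side and 0.68 (SE 0.32, adjusted p = 0.997) with it.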

How the data were processed

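Total RNA of mouse neural stem cells was measured by RNA-seq. Per the labels' protocols, libraries were stranded and depleted of ribosomal RNA. The authors deposited raw read counts for each gene, and the submitters' processing notes name Trimmomatic, STAR, SAMtools and HTSeq on GRCm39. Versions, the annotation, the strand setting and whether duplicate reads were removed are not given by these sources. Without a strand setting, reads of antisense or overlapping genes may be mixed. The 5 summary lines of each library (reads in no gene, ambiguous, not unique and others) stayed out of library sizes and tests. Depth was 8414028 to 19454390 counts in genes in batch 1, and intervals from counting alone would cover counting error only. Symbols were matched for 51880 of 57132 gene identifiers, and 0 columns of per-library values were left unused.

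Counts were analysed with edgeR 4.0.16, limma 3.58.1 and DESeq2 1.42.0 in R 4.3.3, and figures drawn with matplotlib. Low genes were removed by filterByExpr (minimum count 10), libraries scaled by TMM, and values expressed as log2 CPM with a prior count of 2. Treatment was tested with the quasi-likelihood test and Benjamini-Hochberg adjustment at 0.05, and library measures with exact permutation tests. The code was tested on simulated data. Named genes were the 12 with the widest gap in each direction and the 3 largest differences of each of 39 lists, with a mean of at least 50 counts, plus 7 markers; genes outside this rule (Macf1, Ptprz1 and those at the 1.2-fold limit) were chosen after their values were seen. The sides, the lists and the tests were chosen with earlier results of these data known. The slopes against depth and the count of genes in the gRNA 3 and control 3 pair were added after seeing the data. The planned check of gene length was not made, because the gene table given is of another build, and that of base composition is void, because promoter sequences matched 65.5% of the genes tested, under the 80% needed. Ribosome footprints of 4 libraries were not analysed here, since their names matched no label.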

Additional observations from a re-analysis of the deposited data

How the results depend on the processing

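No paired analysis was possible because the RNA-seq labels carry no replicate numbers; the numbers shared by the footprint groups belong to libraries not used here. Counts of genes that followed the sides moved with the minimum difference: 2284 higher and 2568 lower with no minimum, 218 and 501 at 1.5-fold, and 17 and 115 at 2-fold. Genes lower on side A numbered 2427 with total counts in place of TMM and 2709 with no low-count filter. Leaving out 1 library gave 1617 to 2595 higher and 1582 to 2938 lower genes, with the most without gRNA 2 (2595 and 2938), then without control 1 (2313 and 2667); fewer libraries overlap less often by construction. The same leave-one-out fits gave medians of −0.32 to −0.15 for NF-kB genes, −0.38 to −0.15 for interferon genes (−0.149 without gRNA 3, −0.377 without gRNA 2), −0.47 to −0.26 for Wnt and Hedgehog targets and 0.29 to 0.48 for translation factors. For NF-kB genes the lowest was without gRNA 2 (−0.321), for Wnt and Hedgehog targets the value nearest 0 was without control 2 (−0.257), and for translation factors the highest was without control 1 (0.482). In the pair nearest in total counts, medians were 0.219 for ribosomal proteins, 0.201 for oxidative phosphorylation, 0.199 for mitochondrially encoded mRNAs, 0.119 for the proteasome, 0.12 for translation factors, 0.088 for histones, 0.097 for neural stem genes, −0.267 for Wnt and Hedgehog targets and −0.548 for interferon genes. Among gRNA libraries alone, Wnt and Hedgehog targets had −0.246. The cause of these moves was not tested. The treatment test called 1 gene, Gm9843 (log2 difference 1.60, SE 0.31, edgeR adjusted p = 0.00958, higher in 3 of 3 gRNA libraries), with no low-count filter, and 0 in each leave-one-out fit. Gm9843 also passed the filter and was not called in the main fit. With the filter and the side as a term its edgeR adjusted p was 0.815. Directions of the 10 main lists held in all alternatives run. That of a gene that followed the sides cannot turn when 1 library is left out or when 1 library a side is compared. This therefore says nothing of stability. Depth limits genes of low count most in control 2, the shallowest library.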
